A study of Mus musculus with 24 samples.

Results

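The *Mest*-*Klf14* domain is an imprinted region of mouse chromosome 6. It is described here by 8 genes, chosen by symbol in a table of 34745 genes: *Mest*, *Copg2* and *Klf14* of the domain and *Cep41*, *Klhdc10*, *Zc3hc1*, *Ube2h* and *Mkln1* of its flanks, within about 1 Mb. RNA-seq had been performed with total RNA of whole E13.5 (embryonic day 13.5) embryos of the hybrid 129/DBA strain, in 6 embryos labelled *Zfp57*-/+ (M-Z+) and 6 embryos labelled *Zfp57*-/- (M-Z-). All 12 came from a *Zfp57*-/- 129 mother, so every embryo of both groups lacked maternal *Zfp57*. The father was *Zfp57*+/- on a mainly DBA/2J background, and M-Z+ embryos carried his wild-type allele whereas M-Z- embryos also lacked zygotic *Zfp57*. No RNA-seq of wild-type embryos was analysed here, and the labels give neither sex nor litter, so the tests measure the spread between these embryos. The domain was chosen with the M-Z- against M-Z+ comparison known, in which *Mest* was among the few changed genes. The differences of the 8 genes between genotypes are therefore described without printing their p-values. Whether a gene passed the thresholds of the fits over all genes is stated as part of this description.

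An imprinted gene is expressed mainly from the allele of one parent. At this locus the imprinting control region (ICR), called *Peg1* or *Mest* ICR, overlies the *Mest* promoter and is methylated on the maternal chromosome, so that *Mest* is expressed from the paternal allele. *Klf14* is a maternally expressed neighbour, and *Copg2* has been described as preferentially maternal in some mouse tissues. ZFP57 is a KRAB zinc finger protein that binds the hexamer TGCCGC when its CpG is methylated and helps to keep the methylation of ICRs.

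Promoter windows of 300 bases, from 250 bases before to 50 after a RefSeq transcript start on GRCm38.p6, were found for 7 of the 8 genes, in 10 windows. 3 windows are shown because they belong to *Mest*, with its upstream and its main start, and to *Copg2*, the gene that overlaps its 3' end. They are written 5' to 3' along the transcribed strand, and capitals mark TGCCGC or its reverse complement GCGGCA.
*Mest* upstream start, chr6:30733256-30733555, plus strand: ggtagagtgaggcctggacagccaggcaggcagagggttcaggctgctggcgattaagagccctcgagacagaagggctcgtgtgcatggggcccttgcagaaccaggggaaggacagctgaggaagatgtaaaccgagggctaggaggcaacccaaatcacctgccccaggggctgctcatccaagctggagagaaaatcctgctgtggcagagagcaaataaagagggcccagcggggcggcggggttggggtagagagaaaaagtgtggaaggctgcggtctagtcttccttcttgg
*Mest* main start, chr6:30737800-30738099, plus strand: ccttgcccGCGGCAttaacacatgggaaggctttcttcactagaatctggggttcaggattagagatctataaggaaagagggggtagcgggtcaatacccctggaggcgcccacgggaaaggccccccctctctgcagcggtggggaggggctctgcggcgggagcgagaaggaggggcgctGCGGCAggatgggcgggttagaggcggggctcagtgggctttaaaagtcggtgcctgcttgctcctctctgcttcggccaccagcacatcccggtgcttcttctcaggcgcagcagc
*Copg2* start, chr6:30896745-30897044, minus strand: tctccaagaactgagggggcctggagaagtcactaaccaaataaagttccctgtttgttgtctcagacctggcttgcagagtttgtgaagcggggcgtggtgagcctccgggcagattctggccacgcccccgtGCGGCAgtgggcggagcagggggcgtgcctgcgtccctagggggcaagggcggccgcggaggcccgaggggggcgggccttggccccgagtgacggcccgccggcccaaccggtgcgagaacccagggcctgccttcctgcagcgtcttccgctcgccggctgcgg
The main *Mest* window held 2 hexamers and 17 CpG sites, the upstream *Mest* window no hexamer and 8 CpG sites, and the *Copg2* window 1 hexamer and 25 CpG sites. A second window of the main *Mest* start, 3 bases further on, held the same 2 hexamers. None of the windows of *Cep41*, *Klhdc10*, *Zc3hc1*, *Ube2h* and *Mkln1* held the hexamer. Of all 32851 such mouse windows, searched on both strands, 11.6% held it at least once and 1.53% held 2 or more. Among the 10320 windows with 17 or more CpG sites these shares were 26.2% and 4.33%.

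Total counts on genes were between 12347383 and 19216288 per M-Z+ embryo and between 12005145 and 14617373 per M-Z- embryo. *Zfp57* itself had 19.1 to 40.8 CPM (counts scaled to the same library size for each embryo, after TMM normalization in edgeR) among M-Z+ and 17.8 to 27.8 among M-Z- embryos. Because reads of all its exons are summed and no source used here names the deleted part, this level is no check of the genotypes. Markers of hepatocytes, erythroid cells, skeletal muscle, neurons and mesenchyme were all detected, as a whole embryo should show. None of these markers was called changed, and the summed level of each list overlapped between the genotypes. Of 7 trophoblast markers of the placenta, 6 had at most 3 counts in any library. The 5 markers of yolk sac endoderm were detected, none of them was called, and their summed level overlapped between the genotypes.

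Per unit of gene length, *Mest* was by far the most abundant of the 8 genes. In M-Z+ embryos it had 785 ± 71.3 TPM (counts per base of gene, scaled to a common sum in each library, SD, n = 6), above 99.2% of the 16026 genes that passed edgeR's filter on low counts. *Ube2h* followed with 72.4 ± 6.31 TPM, then *Klhdc10* with 44.2 ± 3.13 and *Copg2* with 41.9 ± 3.77 TPM, which did not differ beyond their spread. *Zc3hc1* had 18.6 ± 1.27 TPM. *Cep41* with 8.05 to 14.8, *Mkln1* with 7.50 to 16.1 and *Klf14* with 7.20 to 13.6 TPM had overlapping ranges at the bottom of the order. In M-Z- embryos *Mest* reached 1282 ± 160 TPM and *Klf14* lay between 0.693 and 7.04 TPM, below every value of *Mkln1* and *Cep41*, while *Klhdc10* and *Copg2* still overlapped at 31.3 ± 4.66 and 34.5 ± 3.10 TPM. *Mest* alone made up 69.4% to 76.6% of the normalized counts of the 8 genes in M-Z+ embryos and 78.0% to 86.9% in M-Z- embryos.

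**Figure D1:**
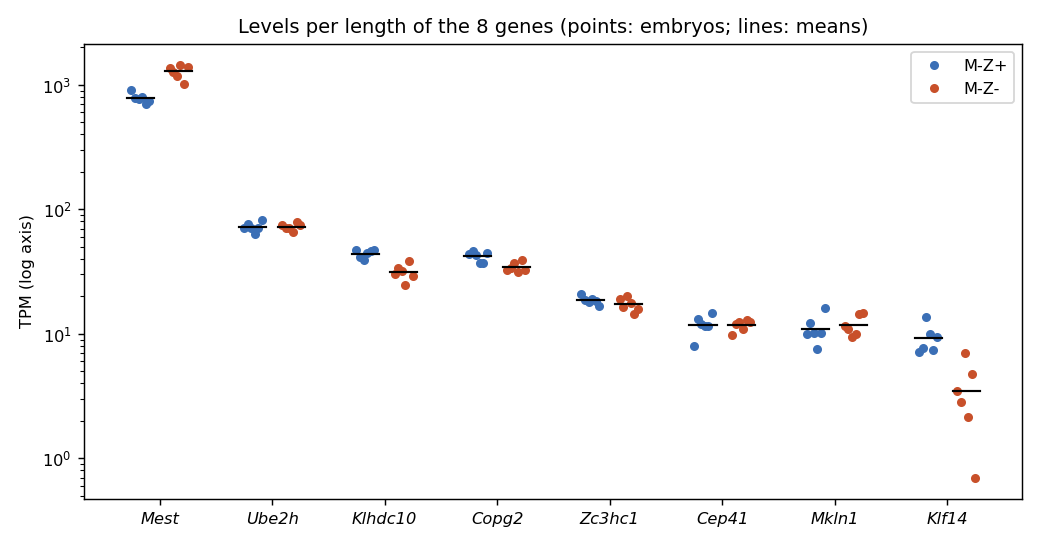
Levels of the 8 genes in TPM on a log axis, with 1 point per embryo (M-Z+ blue, M-Z- orange) and a line at the mean of each genotype. *Mest* has a mean of 785 TPM in M-Z+ and 1282 TPM in M-Z- embryos, and *Klf14* lies between 0.693 and 7.04 TPM in M-Z- embryos.

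All 8 genes passed the filter. In 4 of them the 6 M-Z- embryos did not overlap the 6 M-Z+ embryos in CPM, namely *Mest*, which was higher, and *Copg2*, *Klf14* and *Klhdc10*, which were lower. Of all tested genes 0.574% had such separate groups, 0.300% being higher and 0.275% lower without *Zfp57*. A gene was called when edgeR's quasi-likelihood test over all genes gave a Benjamini-Hochberg adjusted p under 0.05 and its log2 fold change was larger than 0.5 in size. This held for 1 of the 8, *Mest*, where 0.0811% of all tested genes were called, 0.0437% as higher and 0.0374% as lower. DESeq2 on the same genes called 3 of the 8, *Mest*, *Klf14* and *Klhdc10*, where it called 0.231% of all tested genes. The median log2 fold change of the 8 genes was −0.09 and that of all tested genes −0.01, and the median size of the change was 0.23 against 0.11. Because this comparison chose the domain, nothing is read from these counts.

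**Figure D2:**
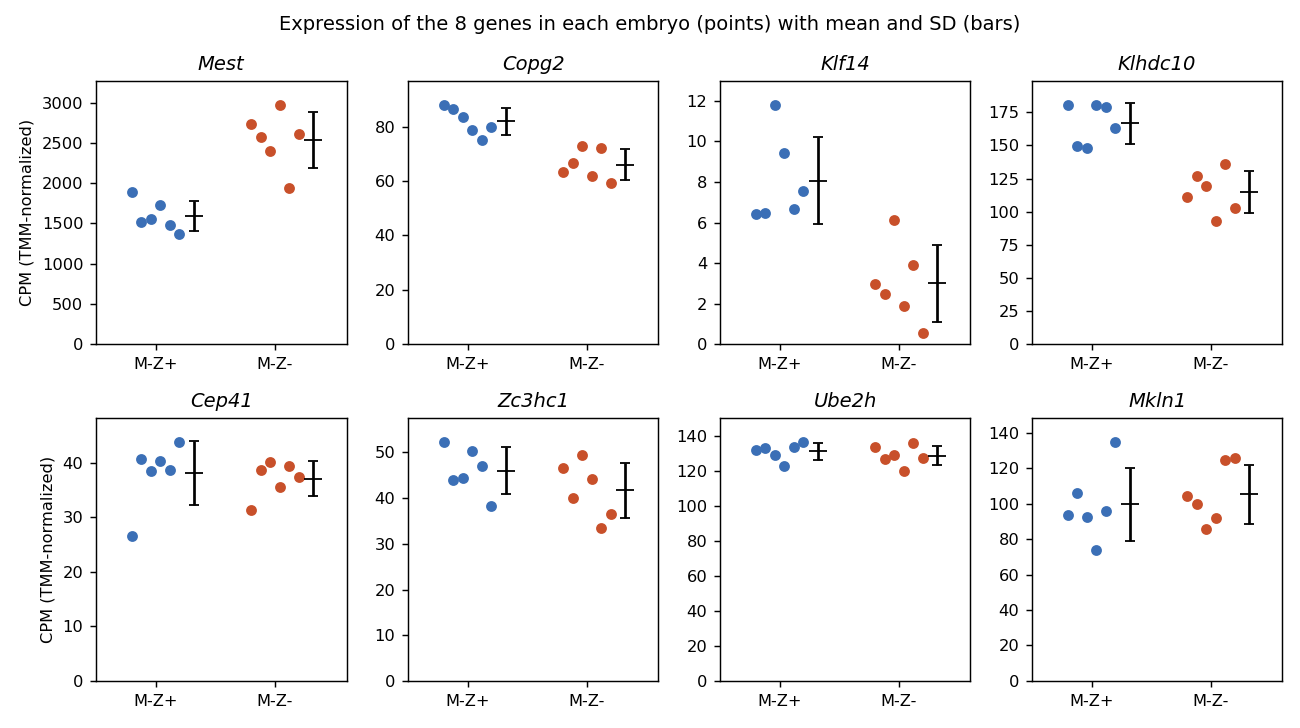
CPM of each of the 8 genes, with 1 point per embryo, M-Z+ on the left and M-Z- on the right of each panel, and the mean and SD beside them. The top row holds the 4 genes whose genotypes did not overlap, *Mest*, *Copg2*, *Klf14* and *Klhdc10*, and the bottom row the 4 that overlapped.

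*Mest* encodes a protein with an alpha/beta hydrolase fold that is abundant in embryonic mesoderm. It lies at chr6:30723547-30748465 (GRCm38). In M-Z+ embryos it had a lowest value of 1373, a median of 1534 and a highest value of 1896 CPM. In M-Z- embryos the corresponding values were 1935, 2593 and 2971 CPM. Replicate 5 was the lowest of the M-Z- embryos and lay just above the highest M-Z+ embryo, replicate 1. *Mest* thus changed 1.59-fold (log2 fold change 0.67, standard error 0.11), from 1593 ± 190 to 2537 ± 351 CPM (SD, n = 6). *Mest* accounted for 0.137% to 0.191% of all counts of a M-Z+ library and 0.189% to 0.295% of a M-Z- library. As a share of all counts, without TMM normalization, the genotypes thus overlapped slightly. With 1 embryo left out, *Mest* remained called in 2 of 12 fits, without M-Z+ replicate 1 or without M-Z- replicate 5, and its log2 fold change stayed between 0.62 and 0.73.

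*Copg2* encodes the gamma-2 subunit of the COPI coat, which covers vesicles that bud from the Golgi. It lies at chr6:30747554-30896794 and shares 912 bases with the 3' end of *Mest*. In M-Z+ embryos it had 75.2 CPM at the lowest, 81.8 at the median and 88.0 at the highest. In M-Z- embryos these values were 59.3, 64.9 and 73.1 CPM. The genotypes were separated by a narrow gap between M-Z+ replicate 5 and M-Z- replicate 3. For *Copg2* the log2 fold change was −0.31 (standard error 0.07), within the limit of 0.5, and it was between −0.40 and −0.29 under every alternative. The strand setting of the counting is not given, so reads of the shared bases cannot be told apart between both genes, and their part in the value of *Copg2* was not tested. *Mest* counts were 17.2 to 22.0 times those of *Copg2* in M-Z+ embryos. In M-Z- embryos *Mest* counts were 26.8 to 48.2 times those of *Copg2*, a ratio within each library that does not depend on normalization. Relative to *Ube2h*, *Mest* counts were 10.05 to 14.4 times as high in M-Z+ and 14.26 to 24.8 times in M-Z- embryos, and here the genotypes overlapped.

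*Klf14* encodes a Kruppel-like transcription factor and has a single compact locus of 3056 bases at chr6:30956023-30959078. It had the lowest mean CPM of the 8 genes and the log2 fold change that was largest in size. M-Z+ embryos had 6.44 CPM at the lowest, 7.12 at the median and 11.8 at the highest. M-Z- embryos had 0.564, 2.72 and 6.14 CPM. The raw counts were 80 to 175 per M-Z+ embryo and 8 to 73 per M-Z- embryo. The log2 fold change was −1.44 (standard error 0.37), or 0.369-fold. The M-Z- embryos varied most, with a coefficient of variation of 63.5% against 26.7% in M-Z+ embryos, and replicate 6 had only 8 counts whereas replicate 3 had 73. Leaving out M-Z- replicate 6 gave −1.22 on the log2 scale, and leaving out M-Z- replicate 3 gave −1.77.

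*Klhdc10* encodes a Kelch-domain receptor of a cullin-2 ubiquitin ligase. It lies at chr6:30401868-30455179, before *Mest* along the chromosome. M-Z+ embryos had 147.7 CPM at the lowest, 171 at the median and 180.5 at the highest. M-Z- embryos had 93.3, 115 and 136 CPM. The genotypes were apart, with M-Z+ replicate 3 as the lowest of its group and M-Z- replicate 5 as the highest of its own. The log2 fold change was −0.54 (standard error 0.10), or 0.689-fold, and lay between −0.60 and −0.47 under the alternatives. Its ratio to *Ube2h* counts in the same library was 1.123 to 1.47 in M-Z+ and 0.777 to 1.00 in M-Z- embryos, again without overlap. Relative to its neighbour *Zc3hc1* the ratio was 3.33 to 4.27 and 2.11 to 4.07, and here the genotypes overlapped.

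The other 4 genes overlapped between the genotypes. *Zc3hc1*, which encodes a protein of the nuclear basket at the nuclear pore, ranged from 38.2 to 52.4 CPM (M-Z+) and from 33.4 to 49.4 CPM (M-Z-, log2 fold change −0.14, standard error 0.11). *Cep41*, which encodes a centrosomal protein needed for tubulin glutamylation in cilia, ranged from 26.7 to 43.9 CPM (M-Z+) and from 31.3 to 40.1 CPM (M-Z-, log2 fold change −0.04, standard error 0.11), although it is the nearest flank gene to *Mest* on that side. *Ube2h*, a ubiquitin-conjugating enzyme, ranged from 123 to 137 CPM (M-Z+) and from 120.0 to 136 CPM (M-Z-). It varied least of the 8 genes, with coefficients of variation of 3.59% and 4.35%, and its log2 fold change was −0.03 (standard error 0.06). *Mkln1* encodes muskelin, a subunit of the CTLH ubiquitin ligase for which UBE2H is the cognate conjugating enzyme. It ranged from 73.6 to 135 CPM (M-Z+) and from 85.8 to 126 CPM (M-Z-, log2 fold change 0.08, standard error 0.14), and the sign of this value turned, to −0.09, in a fit that had each library's gene length slope as a term.

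Along chromosome 6, 45 genes of the table lay within 1 Mb of *Mest*, of which 18 were tested and 10 of these were not among the 8. None of the 10 was called by edgeR or by DESeq2, and in none were the genotypes separate. Unadjusted p-values below 0.05 were found for 2 of the 10, both lower in M-Z- embryos, where 6.7% of all tested genes had such a p. Of these 2, the predicted gene *Gm13781* had a mean of 1.08 CPM (M-Z+) and 0.656 CPM (M-Z-), with a log2 fold change of −0.69 (standard error 0.30). *Tmem209*, which lies between *Klhdc10* and *Cep41*, had 46.1 and 46.7 CPM and a log2 fold change of 0.02 (standard error 0.07). *Podxl* beyond *Mkln1* and *Smo* at the other edge had 0.05 and 0.06. Over all 10, the log2 fold change ran from −0.69 for *Gm13781* to 0.44 for *Strip2* (standard error 0.21), with a median of 0.03. The genes with separate genotypes were not a continuous block, since *Cep41* and *Tmem209*, which overlapped, lay between *Klhdc10* and *Mest*.

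**Figure D3:**
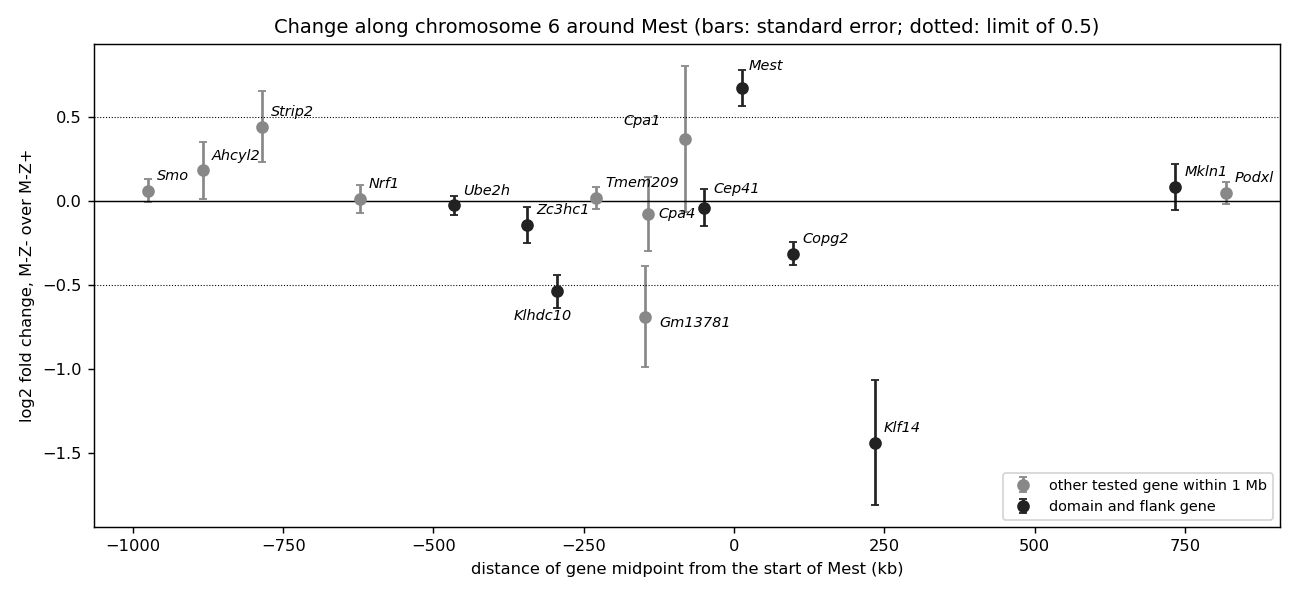
Log2 fold change of M-Z- over M-Z+ embryos with its standard error for the tested genes within 1 Mb of *Mest*, of which 1 is not shown, by the distance of the gene's midpoint from the start of *Mest* in kb. *Mest* at 0.67, *Copg2* at −0.31, *Klf14* at −1.44 and *Klhdc10* at −0.54 stand away from 0, with *Cep41* at −0.04 and *Tmem209* at 0.02 between *Klhdc10* and *Mest*.

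Genes of the same complexes, families or processes as the 8 were examined on 6 lists, from which the 8 genes were set aside. None of the 58 tested genes was called by edgeR or by DESeq2, and none had separate genotypes. 3 of the 58, *Klf1*, *Klf6* and *Ypel5*, had an unadjusted p below 0.05, where 6.7% of all tested genes had one. The other 8 COPI coat subunits had a median log2 fold change of 0.03, from −0.11 for *Copz2* to 0.11 for *Copb1*. *Copg1*, the paralog that encodes the gamma-1 subunit, had 224 ± 17.4 CPM among M-Z+ and 223 ± 14.5 CPM among M-Z- embryos (SD, n = 6, log2 fold change −0.01, standard error 0.07). The other 15 tested Kruppel-like factors had a median of 0.10, from −0.32 for *Klf1*, the erythroid factor, to 0.72 for *Klf12* (standard error 0.39). *Klf16*, a close relative of *Klf14*, had 0.05 (standard error 0.09). The 10 other CTLH subunits had a median of −0.01, from −0.23 for *Ypel5* to 0.09 for *Armc8*. The list for *Klhdc10* held 6 other tested genes. These were the cullin-2 ligase core genes *Cul2* and *Rbx1*, the Kelch-domain genes *Klhdc1*, *Klhdc2* and *Klhdc3*, and *Appbp2*. Their median was −0.09, from −0.17 for *Rbx1* to 0.16 for *Appbp2*. *Elob* and *Eloc*, also on this list of 9 genes, were not found under these symbols, so their levels were not examined. The 3 nuclear basket genes had 0.01 for *Nup50*, 0.20 for *Tpr* and 0.23 for *Nup153*, and the 16 other tested Joubert syndrome ciliary genes had a median of 0.03, from −0.11 for *Kif7* to 0.34 for *Cep290* (standard error 0.36).

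Whether the genes vary together among embryos of the same genotype is a question that the choice of the domain did not use. The log2 CPM of each embryo was taken relative to the mean of its genotype, and *Mest* was compared with the other 7 genes over the 12 embryos. *Zc3hc1* had the highest Pearson r with *Mest*, 0.70 (permutation p = 0.0175, adjusted p = 0.0613 over 7 genes, Spearman rho 0.57 with permutation p = 0.0663). *Ube2h* had −0.67 (permutation p = 0.0295, adjusted p = 0.0688, rho −0.64 with permutation p = 0.0359). *Cep41* had −0.66 (permutation p = 0.0117, adjusted p = 0.0613, rho −0.69 with permutation p = 0.0191). *Mkln1* had −0.57 (permutation p = 0.0628, rho −0.49 with permutation p = 0.13). The values for *Klhdc10*, *Copg2* and *Klf14* were −0.37, −0.32 and −0.32 (permutation p = 0.287, 0.370 and 0.382), with rho of −0.22, −0.29 and −0.46 (permutation p = 0.52, 0.386 and 0.149). None of the 7 relations passed the adjustment. Without the 2 embryos farthest from the median of *Mest*, M-Z+ replicate 1 and M-Z- replicate 5, r was 0.36 for *Zc3hc1*, −0.76 for *Ube2h*, −0.54 for *Cep41*, −0.56 for *Mkln1*, −0.28 for *Klhdc10*, −0.39 for *Copg2* and −0.13 for *Klf14*. Leaving out these embryos also narrows the range of *Mest*, so the lower r of *Zc3hc1* does not show what its relation rests on. With any 1 embryo left out, r for *Zc3hc1* stayed between 0.525 and 0.865. Libraries differed in how steeply log2 CPM rose with log2 gene length, with slopes from 0.437 to 0.670. This slope had r of −0.65 with *Mest*, −0.85 with *Zc3hc1*, 0.63 with *Ube2h* and 0.96 with *Mkln1*, whose counted length of 31918 bases was the greatest of the 8. With that slope removed from each gene, r with *Mest* became −0.74 for *Klf14*, −0.61 for *Cep41*, −0.54 for *Klhdc10*, −0.44 for *Ube2h*, −0.42 for *Copg2*, 0.37 for *Zc3hc1* and 0.29 for *Mkln1*. None of these 7 passed the adjustment either, with the lowest adjusted permutation p = 0.109, for *Klf14* and *Cep41*.

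Each genotype was also taken alone, a comparison of 14 relations added after the data were seen. Among the 6 M-Z+ embryos *Zc3hc1* had the r with *Mest* that was largest in size, 0.91 (exact permutation p = 0.0139, adjusted p = 0.149, rho 0.83 with exact permutation p = 0.0583), followed by *Cep41* with −0.81 (exact permutation p = 0.0319, adjusted p = 0.149, rho −0.71 with exact permutation p = 0.136). Without the 2 M-Z+ embryos farthest in *Mest* these were 0.80 and −0.87 over 4 embryos. Among the 6 M-Z- embryos 6 of the 7 genes had a negative r with *Mest*. It was −0.84 for *Klhdc10* (exact permutation p = 0.0292, adjusted p = 0.149 over 14 relations, rho −0.89 with exact permutation p = 0.0333) and −0.75 for *Copg2* (exact permutation p = 0.0639, adjusted p = 0.224, rho −0.77 with exact permutation p = 0.103). *Ube2h* had −0.72 (exact permutation p = 0.111, rho −0.60 with exact permutation p = 0.242) and *Cep41* −0.59 (exact permutation p = 0.231, rho −0.89 with exact permutation p = 0.0333), and *Mkln1* and *Klf14* had −0.46 and −0.43 (exact permutation p = 0.369 and 0.365, rho −0.09 and −0.66 with exact permutation p = 0.919 and 0.175). *Zc3hc1* had 0.57 (exact permutation p = 0.232, rho 0.31 with exact permutation p = 0.564). Replicate 4 had the highest *Mest* and the lowest *Klhdc10* of the M-Z- embryos, and replicate 5 the lowest *Mest* and the highest *Klhdc10*. Without these 2 embryos r was −0.40 for *Klhdc10* and −0.78 for *Copg2* over 4 embryos. Because the 2 embryos hold the extremes of both *Mest* and *Klhdc10*, the 4 left cannot decide what the relation of *Klhdc10* rests on. Over the same 4 embryos r was 0.50 for *Ube2h*, −0.87 for *Cep41*, 0.63 for *Mkln1*, −0.46 for *Klf14* and −0.33 for *Zc3hc1*. Within the 6 M-Z+ embryos r was 0.49 for *Klhdc10* (exact permutation p = 0.310, rho 0.43 with exact permutation p = 0.419) and 0.45 for *Copg2* (exact permutation p = 0.369, rho 0.49 with exact permutation p = 0.356), and without the 2 embryos farthest in *Mest* −0.46 and 0.41. *Mkln1* and *Ube2h* had −0.71 and −0.59 there (exact permutation p = 0.117 and 0.215, rho −0.77 and −0.83 with exact permutation p = 0.103 and 0.0583), and *Klf14* −0.01 (exact permutation p = 0.985, rho −0.14 with exact permutation p = 0.803). Without those 2 embryos these were −0.92, −0.92 and 0.40. No relation of the 14 passed the adjustment, and the difference between the genotypes was not tested.

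**Figure D4:**
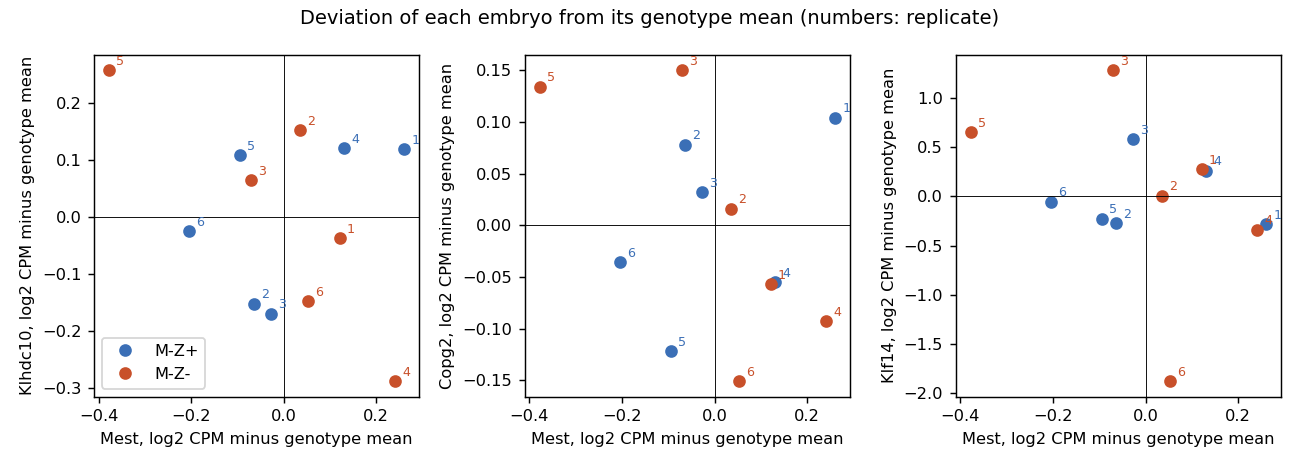
Deviation of each embryo from the mean of its genotype in log2 CPM, *Mest* on the horizontal axis against *Klhdc10*, *Copg2* and *Klf14* on the vertical axes, with replicate numbers beside the points. Among the M-Z- embryos in orange, replicate 4 is highest in *Mest* and lowest in *Klhdc10*, and replicate 5 is the reverse.

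The genes that followed *Mest* most closely among embryos of the same genotype were *Ckmt1*, *Wdr53*, *Pdgfc*, *Frg1* and *Tspan13*, with r between 0.88 and 0.91 over the 12 embryos, as the highest of 13472 genes with a mean of at least 50 counts. None of them lies on chromosome 6, and none was called between the genotypes, with log2 fold changes from −0.23 to −0.05. Of the 7 other genes of the domain and flanks, *Zc3hc1* ranked highest, at 552. The order is by signed r, and *Ube2h* at 13075 and *Cep41* at 13021, both with negative r, lay towards its other end. How high the top r of 13472 genes would be by chance over 12 embryos was not tested. These r are therefore given as a ranking only. The ranking was made without removing the gene length slope, which had r of −0.65 with *Mest*. Whether the same genes would lead with that slope removed was not tested.

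**Figure D5:**
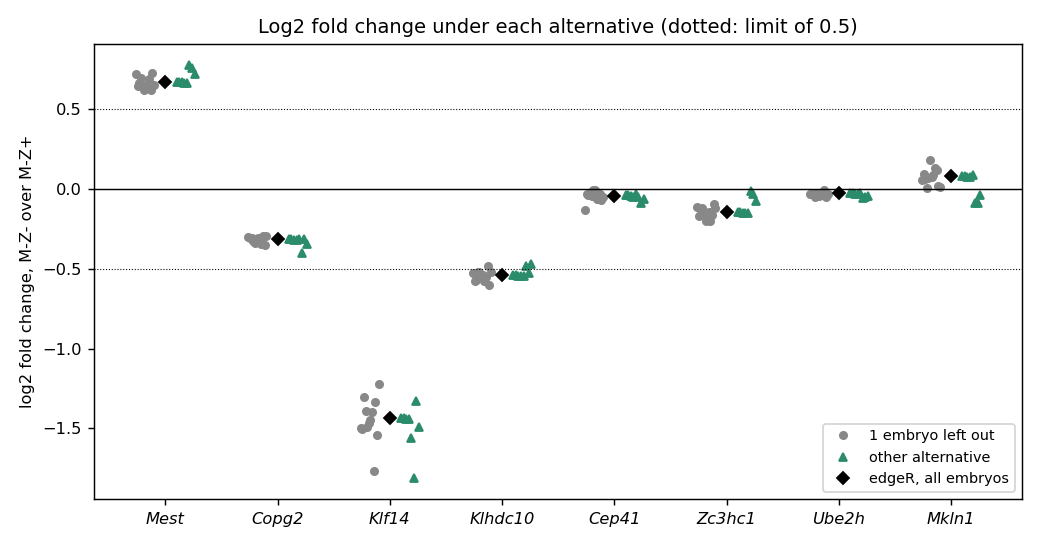
Log2 fold change of each of the 8 genes with all embryos (diamond), with 1 embryo left out (circles) and under the other alternatives (triangles). *Mest* lies above 0.5 and *Copg2*, *Klf14* and *Klhdc10* below 0 in every setting, and *Mkln1* lies on both sides of 0.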

How the data were processed

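RNA-seq counts of 6 M-Z+ and 6 M-Z- embryos were used, and the 12 WGBS samples of the series were left out. Raw counts and FPKM values per gene were deposited by the authors. With 1 length per gene, counts gave each deposited FPKM larger than 0.01 within 0.1%, and TPM was computed with these lengths. The submitters' processing notes name mm10 and, without roles, HISAT2 2.0.4, Trim Galore 0.4.1, Bismark 0.15.0 and Bowtie2 2.2.9. No source used here gives the counting program, its annotation or its strand setting. Table positions overlapped GRCm38 for 99.7% of 25707 genes matched by symbol. Counts may include PCR duplicates.

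edgeR 4.0.16 in R 4.3.3 was used for counts (TMM, filterByExpr, glmQLFit, glmQLFTest without covariates), with Benjamini-Hochberg adjustment over 16026 genes, and DESeq2 1.42.0 and sva 3.50.0 for alternatives. The standard error is the log2 fold change divided by the square root of the F statistic. Correlations used log2 CPM with a prior count of 2, with 100000 permutations within genotype, two-sided, or all 720 orders of 6 embryos. Figures were made with matplotlib 3.10.9. The fits were tested on simulated data.

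The 8 genes, the lists of related genes and the markers were chosen with earlier results of these data known. The genes named are the 8, genes within 1 Mb with an unadjusted p below 0.05, at the extremes of log2 fold change or at the edges, the extremes of each list, and the 5 genes most like *Mest*. *Copg1*, *Klf16*, *Tmem209*, *Podxl*, *Smo*, *Strip2* and the genes with an unadjusted p below 0.05 were named after their values were seen. For 1 gene within 1 Mb of *Mest* no values are reported here. Replicate numbers 1 to 6 are shared by the genotypes but are not said to pair embryos.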

Additional observations from a re-analysis of the deposited data

Results flagged for a closer look

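*Cep41* in M-Z+ replicate 1 had 26.7 CPM, while the others of its genotype lay between 38.6 and 43.9 CPM, and its gap to them exceeded Dixon's 95% critical share of the range. This was 1 of 16 groups of values for the 8 genes, where chance marks about 1 in 20, or 0.8 of 16. The same embryo had the highest *Mest* of the M-Z+ group. Without it the log2 fold change of *Cep41* was −0.13, against −0.04 over all embryos.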

How the results depend on the processing

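The number of all genes called, 13 by edgeR, was 37 with DESeq2, 21 with the replicate block, 23 with the gene length slope in the fit, 31 with 2 surrogate variables and 11 to 15 with 1 embryo left out. Of the 8 genes, 1 was called over all embryos, 3 with DESeq2, 0 without the filter beyond 1 count, 1 with the replicate block, and 0 to 2 with 1 embryo left out. *Klhdc10* joined *Mest* without M-Z- replicate 5. The log2 fold changes of 7 of the 8 genes kept their direction in all 20 alternative fits. *Mkln1* changed sign to −0.09 with the gene length slope, −0.09 with the replicate block together with that slope and −0.036 with 2 surrogate variables. The number of genes past the threshold for variation with *Mest* within genotype, 0, was 0 to 3 with 1 embryo left out: *Cep41* passed without M-Z+ replicate 4, *Cep41* and *Ube2h* without M-Z- replicate 1, and *Zc3hc1*, *Cep41* and *Mkln1* without M-Z- replicate 3. The lists of related genes gave 0 calls in each fit. For none of these changes was the cause tested. The deviations of same-numbered embryos had correlations across genes from 0.02 to 0.64, all positive but not all above 0.1. Of the 6 M-Z+ embryos, 3 correlated best with the M-Z- embryo of their own number. How many would do so by chance was not tested, so whether the numbers pair embryos is not known. *Klf14*, with 8 counts in M-Z- replicate 6, is the gene most limited by depth.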
